A study of Homo sapiens with 4 samples.

Results

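The human genes for the proteins of the mitochondrial ribosome that carry MRPL or MRPS symbols were examined in chromatin-bound RNA of K562 cells with the SF3B1 K700E substitution and of wild-type (WT) cells. They were taken by name, as every protein-coding GENCODE gene whose symbol starts with MRPL or MRPS followed by a number. There were 78 such genes, 49 MRPL and 29 MRPS, on 21 chromosomes. Reads across annotated junctions of their own were found for 76 of them, out of 17157 genes with at least 1 such read. The 4 libraries were 2 SF3B1K700E and 2 WT. Per the labels, doxycycline at 1 µg/ml switched on a modified allele, and the cells were collected 4 days later. That treatment text is shared by all 4 samples, and it leaves unstated whether the WT cells held an inducible construct. Chromatin was isolated in buffers with 25 µM α-amanitin, an RNA polymerase II inhibitor, and polyadenylated RNA was removed from its RNA 3 times before ribosomal RNA was removed. The values are counts of reads across splice junctions, so they describe RNA that was already spliced while bound to chromatin.

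Mitochondrial ribosomes translate the few proteins encoded by mitochondrial DNA, all of them subunits of the oxidative phosphorylation complexes. Their RNA comes from the mitochondrial genome, but every one of their proteins is encoded in the nucleus, transcribed by RNA polymerase II and imported. MRPL symbols were given to proteins of the large subunit, which forms peptide bonds, and MRPS symbols to those of the small subunit, which reads the message. Some symbols depart from this: MRPS30 and MRPS18A, for example, sit in the large subunit. The genes were taken by symbol alone, and a place in the ribosome was not checked for each. SF3B1 is the component of the U2 small nuclear ribonucleoprotein that grips the intron around the branch point, and K700E cells are known for using acceptors a short distance upstream of the normal one.

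The acceptor sequences below show the kind of choice the reads were examined for. The first set holds acceptors, not in the annotation used for alignment, that lay 10 to 30 nt upstream of an annotated acceptor and had reads in a mitochondrial ribosomal protein gene. Those shown are the 3 whose flanking intron bases are contained in a GENCODE 29 transcript (GRCh38). They were chosen after the read counts were seen, because no such site reached 10 reads over the 4 libraries. Each is written 5′ to 3′ up to the last base of the intron, with the upstream and the annotated AG in capitals. The MRPS27 site is at chr5:72228369-72228398 on the minus strand with 15 nt between the acceptors. That of MRPS18C is at chr4:83458316-83458345 on the plus strand with 21 nt between them, and that of MRPL32 is at chr7:42937134-42937163 on the plus strand with 16 nt.
MRPS27: tggatcatgatccAGtatattctgttgcAG
MRPS18C: tattatcAGacttttcgtttttttccctAG
MRPL32: taattcaaactcAGtgttgcttgtcttcAG

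The second set holds tandem annotated acceptors 3 or 4 nt apart, which were the closest competing sites with enough reads to test in these genes. Each sequence starts with the first exon base after the upstream acceptor. Capitals mark the bases that stay in the RNA when the upstream acceptor is used and are removed when the downstream one is used. The windows are chr3:139346878-139346901 in MRPS22, chr15:88467908-88467931 in MRPS11, chr14:22830050-22830073 in MRPL52 and chr12:93469189-93469212 in MRPL42, all on the plus strand, and chr17:75901897-75901920 on the minus strand in MRPL38. The MRPL42 pair lies in the 5′ untranslated region and the others in coding sequence.
MRPS22: CAGaatctggtagcccagagacca
MRPS11: CAGggtcgtggccagaacgccggc
MRPL52: CAGgtgtccggaggctgcactgca
MRPL42: CAGgagtagaaattggtatgctta
MRPL38: CCAGtgtcccgctggatgccgtgc
In 4 of these 5 genes the removed unit was the triplet CAG, so that the downstream acceptor is itself the AG of that triplet.

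Uniquely mapped junction reads numbered 4297393 and 5313934 in SF3B1K700E cells, against 3576184 and 3680968 in WT cells, on the main chromosomes. The mitochondrial ribosomal protein genes took 6465 and 7439 of the annotated-junction reads in SF3B1K700E libraries, and 5173 and 5089 in WT libraries. The labels describe the cells as epithelial although K562 is an erythroleukemia line. All 16 erythroid markers examined had a read in some library, summing to 1487 and 2253 CPM (reads scaled by library total) in SF3B1K700E and 1724 and 2165 CPM in WT. Of 13 epithelial markers, 5 had no read (CDH1, KRT5, KRT7, ESRP1 and GRHL2), with sums of 350 and 444 CPM in SF3B1K700E and 486 and 374 CPM in WT. Of 6 lymphoid markers, 4 had none, and their sums were 1.01 and 2.08 CPM in SF3B1K700E and 1.83 and 3.31 CPM in WT. Nothing in the labels says that replicates came from separate cultures, and p-values reflect only how these samples vary, which can be a technical spread. Over the 10827 genes tested, transcript GC content correlated with the log2 ratio of replicate 1 to replicate 2 at a Spearman's rho of -0.449 in SF3B1K700E and 0.460 in WT. Over the 68 mitochondrial ribosomal protein genes tested, rho was -0.547 in SF3B1K700E and 0.415 in WT. For GC content and the log2 change, SF3B1K700E over WT, rho was -0.163 over all genes tested and -0.235 over the 68. These are descriptions across genes, which are not independent replicates, and the part of GC content in any result here was not tested.

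Spliced reads of the mitochondrial ribosomal protein genes as a class did not separate the genotypes. Their share of all annotated-junction reads was 0.165% and 0.153% in SF3B1K700E libraries, against 0.158% and 0.151% in WT libraries. The group means were 0.159% ± 0.00817 in SF3B1K700E and 0.154% ± 0.00522 in WT (SD, n = 2 each), and the libraries of the groups overlapped. The 95% Wilson interval was 0.161% to 0.169% in SF3B1K700E replicate 1 and 0.154% to 0.162% in WT replicate 1. Such intervals cover the counting error of reads only, not the spread between libraries. The reads carry no molecular identifiers to tell PCR copies apart. In spliced reads of a bulk sample, fewer cells, less RNA per cell and less splicing of the same RNA cannot be told apart.

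Of the 78 genes, 76 had reads at introns of their own and 68 had enough to be tested. None of the 68 passed the edgeR quasi-likelihood test at an adjusted p of 0.05. Over all 10827 genes 0.933% passed, 0.333% higher and 0.6% lower in SF3B1K700E. At an unadjusted p under 0.05 there were 0 higher and 4 lower mitochondrial ribosomal protein genes, where the shares over all genes were 3.67% higher and 6.44% lower. DESeq2 also called 0, where it called 2% of all genes, with 3 at an unadjusted p under 0.05 (7.9% of all genes) and a lowest adjusted p of 0.256. In 14 of the 68 genes (20.6%) both SF3B1K700E libraries exceeded both WT libraries, and 19.4% of all genes did so. In 10 (14.7%) both were below, and 20.1% of all genes were. The median log2 change, SF3B1K700E over WT, was 0.03 over the 68 genes with an interquartile range of -0.13 to 0.25, and 0.00 over all genes. It was -0.00 over 42 MRPL genes and 0.06 over 26 MRPS genes. Changes ran from -1.60 to 0.71, and 64 of the 68 were within 1 log2 unit of 0. The standard errors ran from 0.24 to 0.60, with a median of 0.34. Changes of several standard errors could miss the threshold with 2 libraries in each group. Those of -1.60 in MRPL54 and -1.42 in MRPL14, whose values follow, did not pass. Over all genes tested the lowest standard error was 0.21 and the median 0.31.

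**Figure D1:**
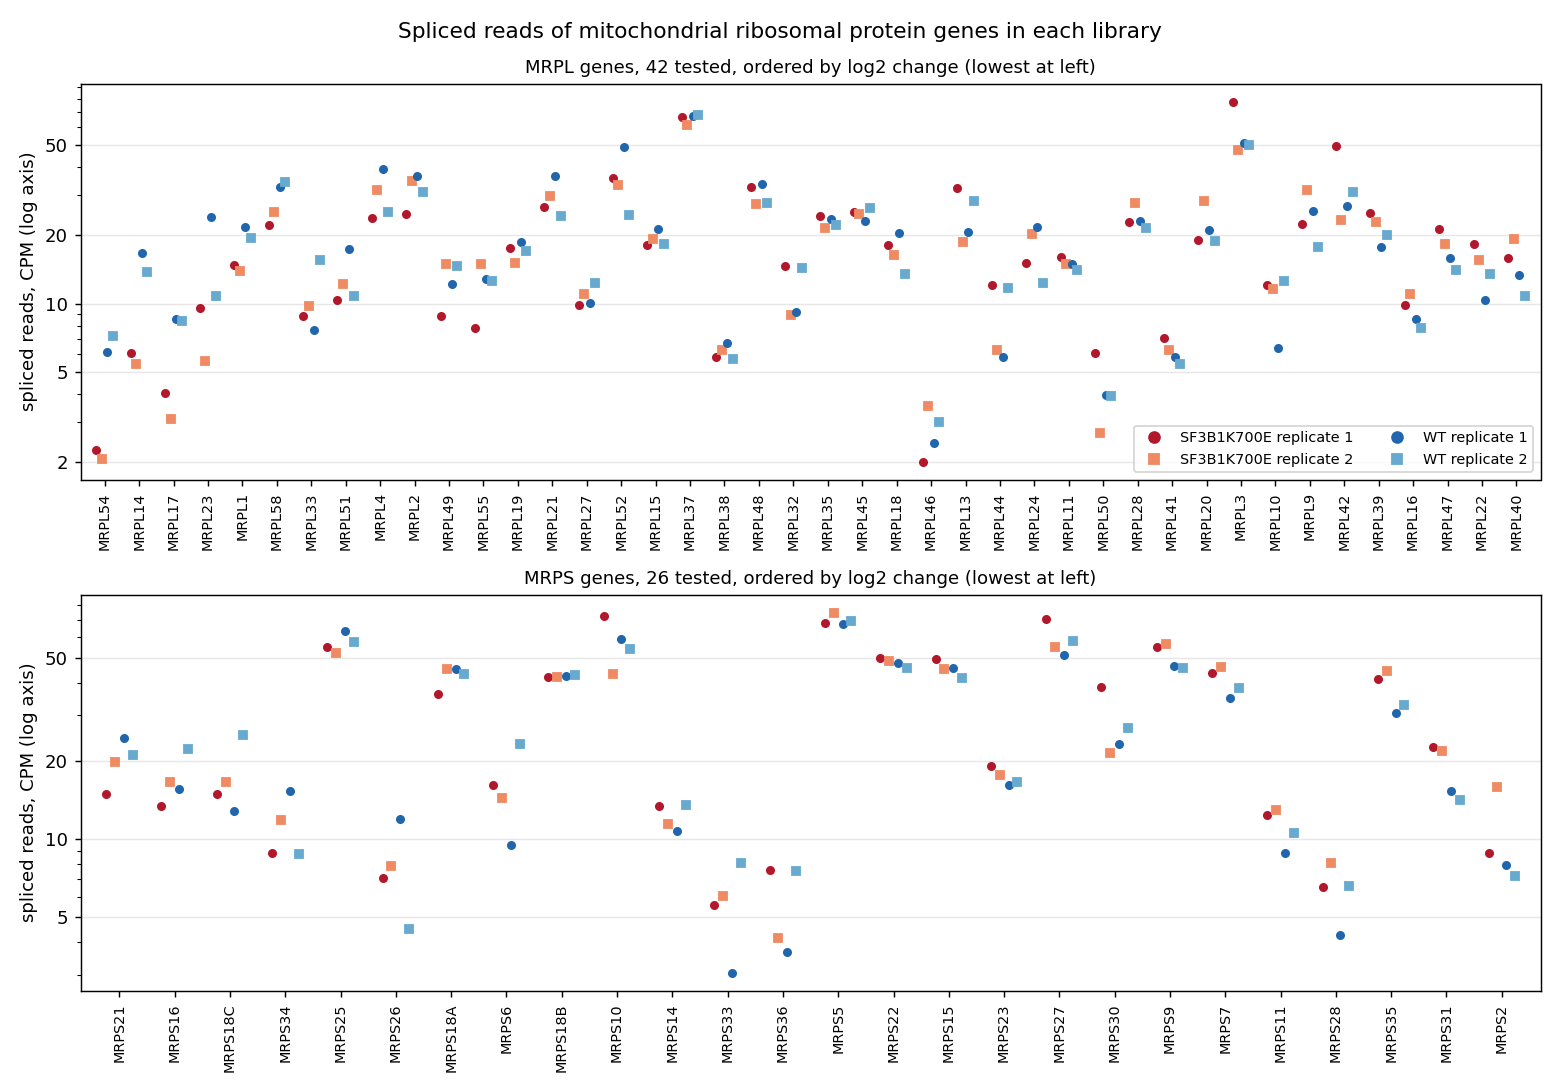
Spliced reads (CPM, log axis) of the 42 MRPL and 26 MRPS genes tested, in each of the 2 SF3B1K700E (red, orange) and 2 WT (blue) libraries, with genes ordered by log2 change. Each point is 1 library. The 4 leftmost MRPL genes, MRPL54, MRPL14, MRPL17 and MRPL23, have both SF3B1K700E points below both WT points, and most other genes have the colours interleaved.

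The 4 genes at an unadjusted p under 0.05 all encode proteins of the large subunit. MRPL54 (ENSG00000183617.4, GRCh38 chromosome 19, 3762664 to 3768575) encodes a subunit without a bacterial counterpart. It had 2.27 and 2.08 CPM in SF3B1K700E, against 6.11 and 7.22 CPM in WT. Both SF3B1K700E libraries were below both WT libraries, with a log2 change of -1.60, a standard error of 0.52 and an edgeR adjusted p of 0.255. MRPL14 (ENSG00000180992.6, chromosome 6, 44113454 to 44127457), a protein at the interface of the subunits, had 6.05 and 5.41 CPM in SF3B1K700E, against 16.8 and 13.8 CPM in WT. Its groups did not overlap either, and its log2 change of -1.42 with a standard error of 0.38 had the lowest edgeR adjusted p of the 68 genes, 0.141.

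MRPL17 (ENSG00000158042.8, chromosome 11, 6680782 to 6683401) had 4.04 and 3.12 CPM in SF3B1K700E, against 8.56 and 8.42 CPM in WT. Its groups were apart, with a log2 change of -1.25, a standard error of 0.46 and an edgeR adjusted p of 0.339. MRPL23 (ENSG00000214026.10, chromosome 11, 1947278 to 1984522), at the rim of the exit tunnel through which new chains leave the ribosome, had 9.59 and 5.61 CPM in SF3B1K700E, against 24.1 and 10.8 CPM in WT. Its WT libraries differed from each other by more than WT replicate 2 differed from SF3B1K700E replicate 1. The log2 change of -1.21 with a standard error of 0.46 did not pass (edgeR adjusted p 0.377), but it passed without SF3B1K700E replicate 1 (-1.62, adjusted p 0.0418) and without WT replicate 2 (-1.65, adjusted p 0.0253). Without WT replicate 1 it was -0.52 with an adjusted p of 1.000, and without SF3B1K700E replicate 2 it was -0.85 with an adjusted p of 0.724.

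Reads across single introns were low in all 4 genes, and because the libraries differ in depth they were compared in CPM. Intron 2 of MRPL14 had 5.30 and 4.58 CPM (21 and 22 reads) in SF3B1K700E, against 11.9 and 10.5 CPM (39 and 35 reads) in WT. Its intron 1 had 0.757 and 0.832 CPM in SF3B1K700E, against 4.89 and 3.31 CPM in WT. In MRPL17, intron 1 had 2.27 and 1.66 CPM in SF3B1K700E, against 4.58 and 4.81 CPM in WT, and intron 2 had 1.51 and 1.46 CPM in SF3B1K700E, against 3.97 and 3.61 CPM in WT. The groups were thus apart at each numbered intron of MRPL14 and MRPL17. In MRPL54, intron 1 had 1.01 and 1.46 CPM (4 and 7 reads) in SF3B1K700E, against 1.53 and 5.11 CPM (5 and 17 reads) in WT, and intron 2 had 1.26 and 0.624 CPM in SF3B1K700E, against 4.58 and 2.10 CPM in WT. Both introns of MRPL54 separated the groups in CPM, intron 1 by a margin of less than 1 read.

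In MRPL23 intron 2 had 3.28 and 1.66 CPM in SF3B1K700E, against 7.95 and 3.91 CPM in WT, and intron 3 had 3.28 and 2.7 CPM in SF3B1K700E, against 9.78 and 3.91 CPM in WT. Intron 4, the longest of the 5, had 0 reads in both SF3B1K700E libraries, against 5 and 4 reads (1.53 and 1.20 CPM) in WT. These 3 introns were lower in both SF3B1K700E libraries, and WT replicate 1 was the highest library at each. A shorter annotated intron from the donor of intron 4 had 5 and 5 reads (1.26 and 1.04 CPM) in SF3B1K700E, against 5 and 4 reads (1.53 and 1.20 CPM) in WT, with groups that overlapped. Introns 1 and 5 had at most 3 reads in any library.

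**Figure D2:**
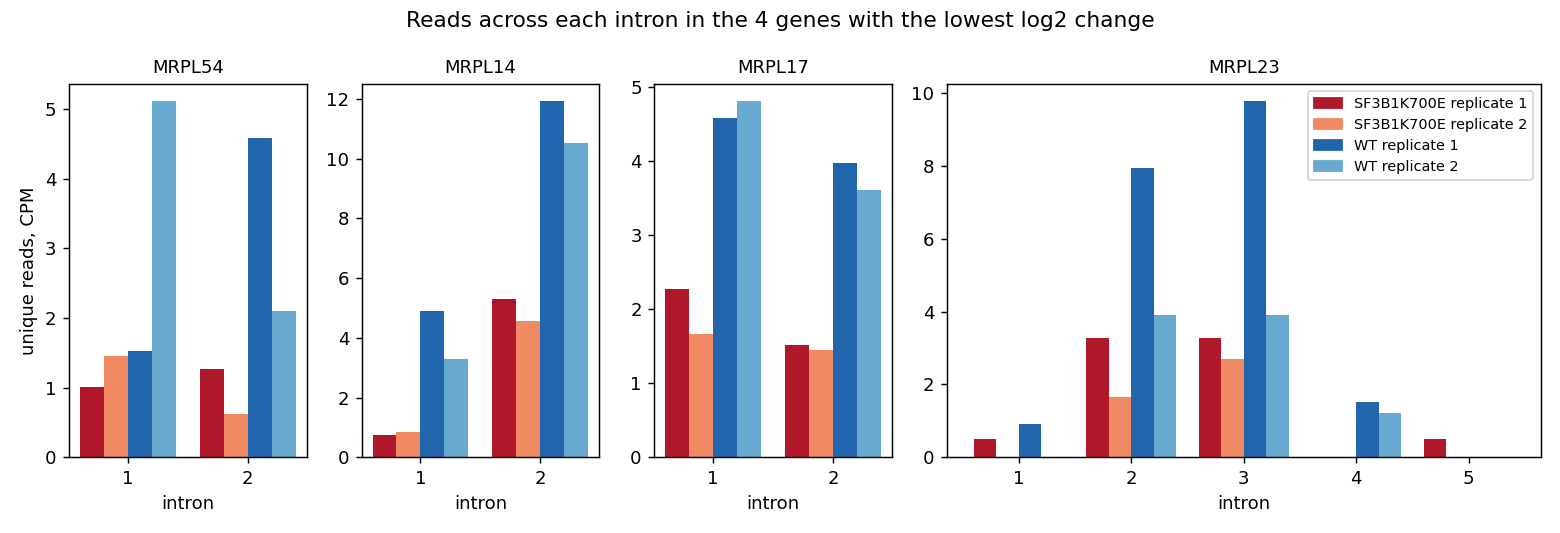
Unique reads across each numbered intron of MRPL54, MRPL14, MRPL17 and MRPL23 in the 2 SF3B1K700E (red, orange) and 2 WT (blue) libraries, in CPM, with 1 bar per library. MRPL54, MRPL14 and MRPL17 have lower SF3B1K700E bars at both introns, and in MRPL23 the SF3B1K700E bars are lower at introns 2 and 3 and absent at intron 4.

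MRPL17 and MRPL23 both lie on the short arm of chromosome 11. All 14 other tested genes within 1 Mb of MRPL17 had log2 changes below 0, with a median of -0.52, and all 9 within 1 Mb of MRPL23 did, with a median of -0.77. The 5 other mitochondrial ribosomal protein genes tested on chromosome 11 (MRPL16, MRPL11, MRPL21, MRPL48 and MRPL49) had log2 changes of -0.17 to 0.35. They lie on the long arm, between 59806135 and 73865133, so their values do not describe the short arm. Around MRPL54 the median of 40 neighbours was -0.08 with 26 below 0, and around MRPL14 the median of 24 neighbours was -0.06 with 15 below 0. Around the genes with the highest changes, described below, the medians were 0.00 for MRPS2 (7 of 14 neighbours below 0), 0.34 for MRPS31 (2 of 7) and -0.03 for MRPL40 (13 of 24). Whether the neighbourhood has a part in the values of any of these genes was not tested.

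**Figure D3:**
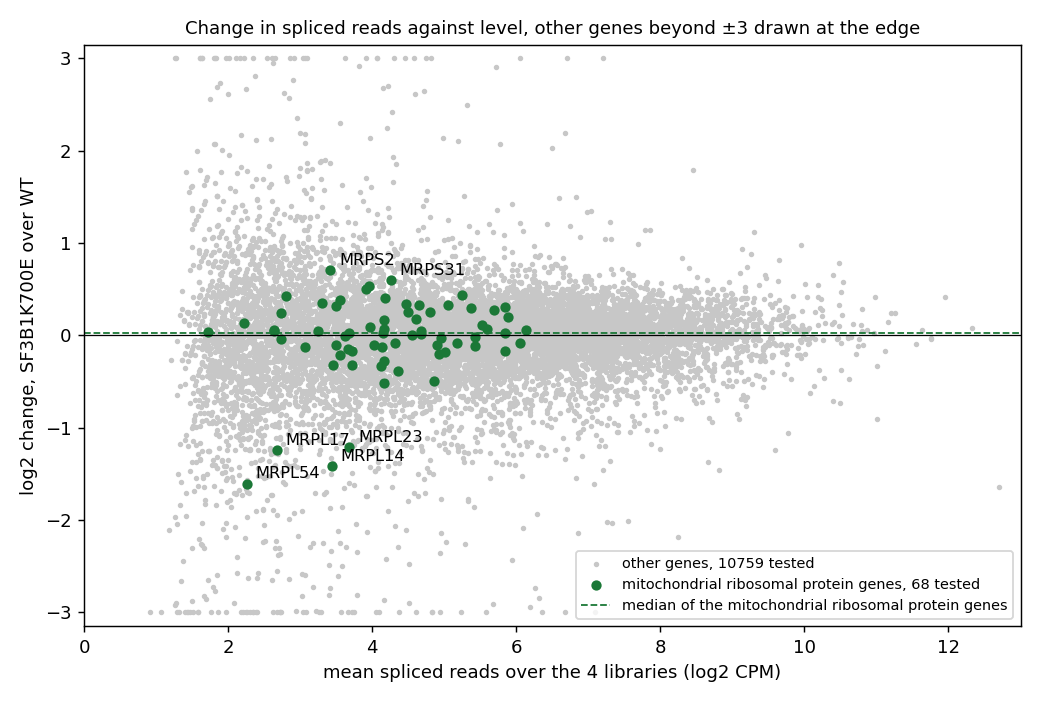
Log2 change in spliced reads, SF3B1K700E over WT, against the mean level in log2 CPM for 68 mitochondrial ribosomal protein genes (green) and 10759 other tested genes (grey), 1 point per gene, with other genes beyond 3 log2 units drawn at the edge. The green points centre on a median of 0.03 (dashed), and 4 of them lie below -1.

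No other gene of the large subunit was as low. MRPL1, a component of the stalk through which spent tRNA leaves, had 14.9 and 13.9 CPM in SF3B1K700E, against 21.7 and 19.5 CPM in WT, a log2 change of -0.52 with a standard error of 0.31. MRPL58, a peptidyl-tRNA hydrolase built into the large subunit, had 22.2 and 25.4 CPM in SF3B1K700E, against 32.7 and 34.3 CPM in WT (log2 change -0.49, standard error 0.28). In both genes the groups did not overlap and the difference did not pass, with edgeR adjusted p-values of 0.673 for MRPL1 and 0.638 for MRPL58. All 8 other tested genes within 1 Mb of MRPL1 on chromosome 4 had log2 changes below 0, and the part of that neighbourhood was not tested.

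Among small subunit genes with SF3B1K700E libraries lower than WT libraries, MRPS21 had 14.9 and 19.8 CPM in SF3B1K700E, against 24.5 and 21.0 CPM in WT, and MRPS25 had 55.0 and 52.2 CPM in SF3B1K700E, against 63.3 and 57.4 CPM in WT. Their log2 changes were -0.39 and -0.17, with standard errors of 0.31 and 0.25. As means, MRPS21 had 17.3 ± 3.44 CPM in SF3B1K700E and 22.7 ± 2.41 CPM in WT, and MRPS25 had 53.6 ± 1.98 CPM in SF3B1K700E and 60.3 ± 4.13 CPM in WT (SD, n = 2 each). Neither difference passed, and without SF3B1K700E replicate 1 the log2 change of MRPS21 was -0.19.

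The highest changes were in genes of both subunits, and none passed. MRPS2, a small subunit protein with a bacterial homolog, had 8.83 and 15.8 CPM in SF3B1K700E, against 7.95 and 7.22 CPM in WT, a log2 change of 0.71 with a standard error of 0.42 (edgeR adjusted p 0.669). Most of its difference came from SF3B1K700E replicate 2, where intron 3 had 7.49 CPM (36 reads). That intron had 3.78 CPM (15 reads) in SF3B1K700E replicate 1 and 3.67 and 4.21 CPM (12 and 14 reads) in WT. Without SF3B1K700E replicate 2 the log2 change of MRPS2 was 0.23. MRPS31, a small subunit protein without a bacterial counterpart, had 22.7 and 21.8 CPM in SF3B1K700E, against 15.3 and 14.1 CPM in WT, with a log2 change of 0.60, a standard error of 0.31 and an edgeR adjusted p of 0.583. Its means were 22.3 ± 0.615 CPM in SF3B1K700E and 14.7 ± 0.815 CPM in WT (SD, n = 2 each). Intron 2 of MRPS31 had 7.32 and 8.32 CPM (29 and 40 reads) in SF3B1K700E, against 5.50 and 3.61 CPM (18 and 12 reads) in WT. The last intron had 1.77 and 2.08 CPM (7 and 10 reads) in SF3B1K700E, against 2.14 and 3.91 CPM (7 and 13 reads) in WT. That intron was thus lower in both SF3B1K700E libraries, opposite to the gene total, on few reads.

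Of the other small subunit genes whose SF3B1K700E libraries were both higher, MRPS35 had 41.4 and 44.3 CPM in SF3B1K700E, against 30.6 and 32.8 CPM in WT, and MRPS11 had 12.4 and 12.9 CPM in SF3B1K700E, against 8.86 and 10.5 CPM in WT. Their log2 changes were 0.44 and 0.38, with standard errors of 0.26 and 0.36. In the large subunit, MRPL40 had 15.9 and 19.3 CPM in SF3B1K700E, against 13.5 and 10.8 CPM in WT, and MRPL22, which lines the exit tunnel, had 18.4 and 15.6 CPM in SF3B1K700E, against 10.4 and 13.5 CPM in WT. Their log2 changes were 0.54 and 0.50, with standard errors of 0.34 each. MRPL47 had 21.4 and 18.3 CPM in SF3B1K700E, against 15.9 and 14.1 CPM in WT (log2 change 0.40), and MRPL16 had 9.84 and 11.0 CPM in SF3B1K700E, against 8.56 and 7.82 CPM in WT (log2 change 0.35). Over all 14 genes whose SF3B1K700E libraries were both higher, 8 were of 26 MRPS genes (30.8%) and 6 of 42 MRPL genes (14.3%), where the share over all genes was 19.4%. None of the 14 reached an unadjusted edgeR p under 0.05. Of the 10 genes whose SF3B1K700E libraries were both lower, 3 were MRPS (11.5%) and 7 MRPL (16.7%), where the share over all genes was 20.1%.

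The 5 genes with the most reads were MRPS5, MRPL37, MRPS27, MRPL3 and MRPS25, described above. MRPS5, a small subunit protein with a bacterial homolog, had 67.9 and 74.5 CPM in SF3B1K700E, against 67.5 and 69.1 CPM in WT, a log2 change of 0.06 with a standard error of 0.24. MRPL37 had 66.6 and 61.1 CPM in SF3B1K700E, against 66.9 and 67.9 CPM in WT, a log2 change of -0.08 with a standard error of 0.24. MRPS27, a pentatricopeptide repeat protein of the small subunit, had 70.6 and 55.1 CPM in SF3B1K700E, against 51.4 and 57.7 CPM in WT (log2 change 0.20, standard error 0.26). Without SF3B1K700E replicate 1 the change of MRPS27 was 0.02, and without SF3B1K700E replicate 2 it was 0.39. In MRPL3, 77.7 CPM in SF3B1K700E replicate 1 stood above 47.6 CPM in SF3B1K700E replicate 2 and 51.0 and 49.9 CPM in WT, and its log2 change of 0.31, with a standard error of 0.29, was -0.08 without SF3B1K700E replicate 1.

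Totals per gene grow with the number of introns, so levels were compared as the mean CPM over the introns of the longest coding transcript that no other gene holds, with an intron without reads counted as 0. Such introns numbered 1 to 11 among the genes tested, with a median of 4, and were all the introns of that transcript in 64 of the 68 genes. The mean CPM per intron over the genotypes ran from 0.983 to 17.8 with a median of 4.13. MRPS21 was highest, at 15.8 ± 3.01 CPM per intron in SF3B1K700E and 19.9 ± 1.30 in WT, beside MRPS25 at 16.3 ± 1.26 in SF3B1K700E and 18.9 ± 1.29 in WT (SD, n = 2 each), and these neighbours did not differ beyond their spread. MRPS7 followed at 13.1 ± 0.579 CPM per intron in SF3B1K700E and 10.2 ± 0.119 in WT. MRPL55 was lowest, at 0.965 ± 0.223 CPM per intron in SF3B1K700E and 1.00 ± 0.0545 in WT. MRPL38 and MRPL46 share most of their introns with a neighbouring or readthrough gene, so their levels rest on 1 intron each: MRPL38 had 94 unshared reads of 920, and MRPL46 had 43 of 163.

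The 10 genes that were not tested had between 0 and 33 unshared reads over the 4 libraries. MRPL12, the stalk protein that also binds mitochondrial RNA polymerase, and MRPL53 had 0, because each of their introns with reads is also annotated to another gene. Counted with those introns, MRPL12 had 182 and 287 reads in SF3B1K700E, against 175 and 106 in WT, and MRPL53 had 19 and 50 reads in SF3B1K700E, against 26 and 23 in WT. The remaining 8 were MRPL30, MRPL34, MRPL36, MRPL43, MRPL57, MRPS12, MRPS17 and MRPS24, among which MRPL57 had 3 reads in all. Reads mapped to several places made up 1.23% of the reads of the 78 genes, and 179 of these 300 reads were in MRPL45, so its total is uncertain where a near-identical copy shares its sequence.

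Splice site choice within these genes was examined next. Their 474 annotated junctions carried 24166 unique reads, with a median of 249.5 per gene and at most 1078. All but 8 of the junctions had GT/AG ends, those 8 had GC/AG ends, and 0 had AT/AC ends. For competing acceptors, 39 junctions in 19 clusters that share a donor were tested in 17 genes, with 10 to 184 reads each. None passed edgeR's test at an adjusted p of 0.05, where 0.137% of 23366 junctions did so over all genes. None had an unadjusted edgeR p under 0.05, where 3.17% did so over all genes, and the lowest was 0.118. limma voom called 0, against 0.0642% over all genes, with 2 at an unadjusted p under 0.05, against 3.74% over all genes. The shares of 18 of the 39 (46.2%) did not overlap between the groups, and those of 37.9% over all genes did not.

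The lowest p belonged to the tandem acceptor of MRPS22, a small subunit protein without a bacterial counterpart. Its downstream acceptor (GRCh38, intron at chromosome 3, 139344199 to 139346880), which removes the CAG shown above, took 7 of 46 and 6 of 45 reads in SF3B1K700E, against 3 of 36 and 0 of 31 in WT. The shares were 15.2% and 13.3% in SF3B1K700E and 8.33% and 0% in WT, with a log2 change of 1.60 relative to its partner (edgeR adjusted p 1.000). That change was 5.47 without WT replicate 1 and 0.76 without WT replicate 2, so its size rests on single WT libraries with 3 and 0 reads. The downstream acceptor of the MRPS11 pair took 3 of 13 and 8 of 17 reads in SF3B1K700E, against 1 of 6 and 1 of 7 in WT. In MRPL52 the downstream acceptor took 11 of 18 and 4 of 13 reads in SF3B1K700E, against 18 of 24 and 4 of 10 in WT. In MRPL42 it took 12 of 19 and 6 of 13 reads in SF3B1K700E, against 6 of 9 and 8 of 12 in WT, and in MRPL38, where the unit is 4 nt, 2 of 44 and 10 of 79 reads in SF3B1K700E, against 5 of 41 and 3 of 40 in WT. The downstream site therefore had the larger share in SF3B1K700E in MRPS22 and MRPS11 and the smaller share in MRPL42, with groups that did not overlap, and the groups overlapped in MRPL52 and MRPL38.

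Other low p-values were at sites further apart. In MRPL37 an unannotated junction from exon 4 to exon 6 of 7 (chromosome 1, 54210132 to 54216140), which leaves out exon 5, had 2 of 45 and 2 of 43 reads from its donor in SF3B1K700E, against 4 of 33 and 5 of 40 in WT. That is 4.44% and 4.65% in SF3B1K700E and 12.1% and 12.5% in WT (edgeR unadjusted p 0.159). In MRPS9 an unannotated acceptor 509 nt upstream of the annotated one (chromosome 2, 105089070 to 105089410) had 10 of 43 and 4 of 34 reads in SF3B1K700E, against 1 of 18 and 2 of 20 in WT (unadjusted edgeR p 0.235). In MRPL32, which is cleaved by a mitochondrial protease before it joins the ribosome, an unannotated acceptor 1476 nt upstream (chromosome 7, 42935137 to 42935845) had 5 of 14 and 2 of 14 reads in SF3B1K700E, against 5 of 10 and 7 of 13 in WT (unadjusted edgeR p 0.216). The groups were apart in all 3 genes, and none of these differences passed. The exon-skipping junction of MRPL37, which joins annotated sites, and the unannotated acceptor of MRPL32 had smaller shares in SF3B1K700E, and the unannotated acceptor of MRPS9 had a larger one.

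In MRPS25 an unannotated acceptor 4283 nt upstream of the one in its 3′ untranslated region had 9 of 19 and 4 of 18 reads in SF3B1K700E, against 7 of 12 and 12 of 19 in WT. In MRPL52 an annotated acceptor 2454 nt upstream of the most used one had 13 of 29 and 15 of 39 reads in SF3B1K700E, against 12 of 39 and 1 of 21 in WT. The WT libraries of MRPL52 differed by more than WT replicate 1 did from SF3B1K700E replicate 2.

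For competing donors, 50 junctions in 25 clusters that share an acceptor were tested in 22 genes. None passed, where 0.0087% of 22976 junctions did so over all genes, and 0 had an unadjusted edgeR p under 0.05, where 2.18% did so over all genes. limma voom called 0 and had 0 at an unadjusted p under 0.05, where 2.75% did so over all genes. The shares of 21 of the 50 (42%) did not overlap between the groups, and those of 37.2% over all genes did not. The lowest edgeR p, 0.139 unadjusted, was in MRPL38, where a junction into exon 3 (chromosome 17, 75902155 to 75904225) had 2 of 40 and 6 of 68 reads in SF3B1K700E, against 1 of 40 and 1 of 54 in WT. A second MRPL38 junction, into exon 7, had 5 of 17 and 5 of 25 reads in SF3B1K700E, against 1 of 11 and 2 of 18 in WT. The shares at these places were larger in both SF3B1K700E libraries, on 8 and 10 reads in SF3B1K700E and 2 and 3 reads in WT. At another minor donor of the junctions into exon 3, 4 nt away, MRPL38 had 7 of 40 and 5 of 68 reads in SF3B1K700E, against 4 of 40 and 5 of 54 in WT, with groups that overlapped. In MRPL52 the less used donor of the junctions into exon 4 of 5 had 13 of 29 and 16 of 40 reads in SF3B1K700E, against 11 of 38 and 6 of 26 in WT.

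In MRPS27 the less used donor of the junctions into exon 10 of 12 had 5 of 25 and 6 of 25 reads in SF3B1K700E, against 7 of 25 and 14 of 29 in WT. In MRPL24, a donor in the 5′ untranslated region 41 nt upstream of another had 6 of 11 and 4 of 7 reads in SF3B1K700E, against 0 of 1 and 1 of 4 in WT, too few in WT to set a share. In MRPL18 an unannotated donor 149 nt upstream had 2 of 30 and 2 of 21 reads in SF3B1K700E, against 3 of 19 and 3 of 20 in WT. In MRPS16 an unannotated donor 248 nt upstream had 0 of 11 and 6 of 33 reads in SF3B1K700E, against 10 of 26 and 5 of 33 in WT, with groups that overlapped.

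**Figure D4:**
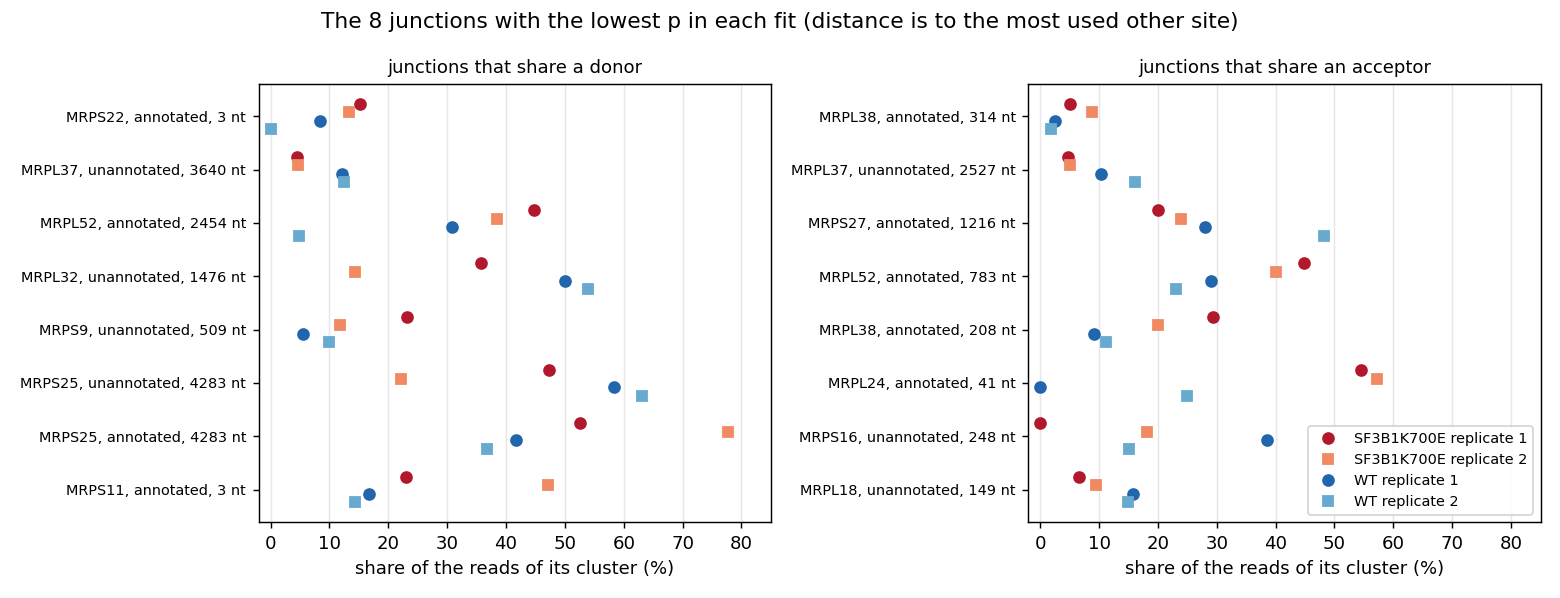
Share in percent of the reads of its cluster for the 8 junctions with the lowest p among those that share a donor (left panel) and those that share an acceptor (right panel), with 1 point per library, 2 SF3B1K700E (red, orange) and 2 WT (blue). Labels give the gene, the annotation status and the distance to the most used competing site. The groups are apart at 15 of the 16 junctions, overlap in MRPS16, and none of the 16 passed. The 16 were picked for the lowest p, which favours groups that are apart. Over all genes 37.9% of acceptor and 37.2% of donor junctions had shares that did not overlap. The same MRPL37 junction is in both panels, the MRPS25 junctions are partners in 1 cluster, and MRPL24 has few WT reads.

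Acceptors 10 to 30 nt upstream of an annotated one and used from the same donor had few reads. In all other genes 226 such sites, or 1.32 per 100 genes with reads, had at least 10 reads over the 4 libraries, and they took 10.7% ± 1.40 of the reads at their acceptors in SF3B1K700E and 3.33% ± 0.0839 in WT (SD, n = 2 each). These 226 were kept by reads summed over all 4 libraries, and the SF3B1K700E libraries are deeper. Their higher share in SF3B1K700E is therefore in part set by that choice and is a description only. In the 76 mitochondrial ribosomal protein genes with reads 0 sites reached 10 reads, a count that the rate in other genes also allows. At least 1 read was found at 15 sites in 11 genes, or 19.7 sites per 100 genes against 22.9 in other genes, with 25 reads in SF3B1K700E and 5 in WT, and no site had more than 6. A site here is an acceptor with its donor, so an acceptor used from several donors counts for each. In MRPL48 the acceptor 25 nt upstream of exon 4 had 1 read in WT replicate 2 from its first donor. From another donor the same acceptor had 1 read in SF3B1K700E replicate 2. Of the 15 sites, 11 had reads in SF3B1K700E alone, 1 in WT alone (that of the first MRPL48 donor) and 3 in both. Of the 15, 8 rested on a single read. A site thus entered mostly through its reads in SF3B1K700E, which are also the deeper libraries, so the higher share in SF3B1K700E that follows is in part set by how the sites were chosen and is a description only.

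As a share of the reads at those acceptors, the 15 sites had 9 of 365 and 16 of 378 reads in SF3B1K700E, against 1 of 249 and 4 of 271 in WT. That is 2.47% (95% Wilson interval 1.30% to 4.62%) and 4.23% (2.62% to 6.76%) in SF3B1K700E, and 0.402% (0.0709% to 2.24%) and 1.48% (0.575% to 3.73%) in WT. The means were 3.35% ± 1.25 in SF3B1K700E and 0.939% ± 0.760 in WT (SD, n = 2 each). In other genes the same share over 3907 sites chosen in the same way was 2.30% ± 0.340 in SF3B1K700E and 0.880% ± 0.0496 in WT. With 2 libraries in each group the smallest p of a 2-sided exact permutation test over libraries is 0.333, so no test is given for this or the other shares per library.

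The site with most reads was in MRPS30, whose product sits in the large subunit, 18 nt upstream of exon 5 (intron at chromosome 5, 44813283 to 44814894), with 1 and 3 reads in SF3B1K700E, against 0 and 2 in WT, beside 37 and 34 reads at the annotated acceptor in SF3B1K700E and 29 and 32 in WT. In MRPL3 a site 13 nt upstream of exon 9 (chromosome 3, 131469787 to 131471170) had 0 and 4 reads in SF3B1K700E and 0 in WT, beside 47 and 49 annotated reads in SF3B1K700E and 21 and 31 in WT. MRPS10 had 1 and 2 reads 22 nt upstream of exon 7 in SF3B1K700E and 0 in WT. The MRPS27 site shown above, 15 nt upstream of exon 9, had 3 and 0 reads in SF3B1K700E and 0 in WT, beside 21 and 27 annotated reads in SF3B1K700E and 23 and 16 in WT. The MRPS18C and MRPL32 sites shown had 1 read each in SF3B1K700E and 1 each in WT. Of the 15 sites, 10 are a distance from the annotated acceptor that is not a multiple of 3, so use of them would shift the reading frame where they precede coding sequence.

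Unannotated junctions of any kind that share a splice site with these genes numbered 268 in 59 genes and carried 756 reads, and 146 of these junctions had a single read. They were 288 reads at unannotated acceptors, 280 at unannotated donors and 188 at new pairs of annotated sites. Their share of the junction reads was 3.16% and 3.13% in SF3B1K700E, against 2.98% and 2.79% in WT. The means were 3.14% ± 0.0249 in SF3B1K700E and 2.89% ± 0.137 in WT (SD, n = 2 each), and in other genes 3.10% ± 0.209 in SF3B1K700E and 2.78% ± 0.0112 in WT. The libraries did not overlap, but the difference of 0.258 percentage points changed sign, to -0.266, when only junctions with at least 10 reads were kept. Skipping was counted at junctions, annotated or not, that pass over an exon of the longest coding transcript. It was taken as a share of reads joining that transcript's sites. The share was 2.36% and 2.55% in SF3B1K700E, against 2.32% and 2.06% in WT. The difference of group means was 0.267 points, and -0.0914 with the same minimum. An annotated MRPS27 junction from exon 4 to exon 6 had 60 of the 320 such reads in SF3B1K700E and 44 of the 208 in WT. The share thus includes annotated splicing. In other genes the skipping share, counted in the same way, was 2.05% ± 0.0834 in SF3B1K700E and 1.88% ± 0.0117 in WT.

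**Figure D5:**
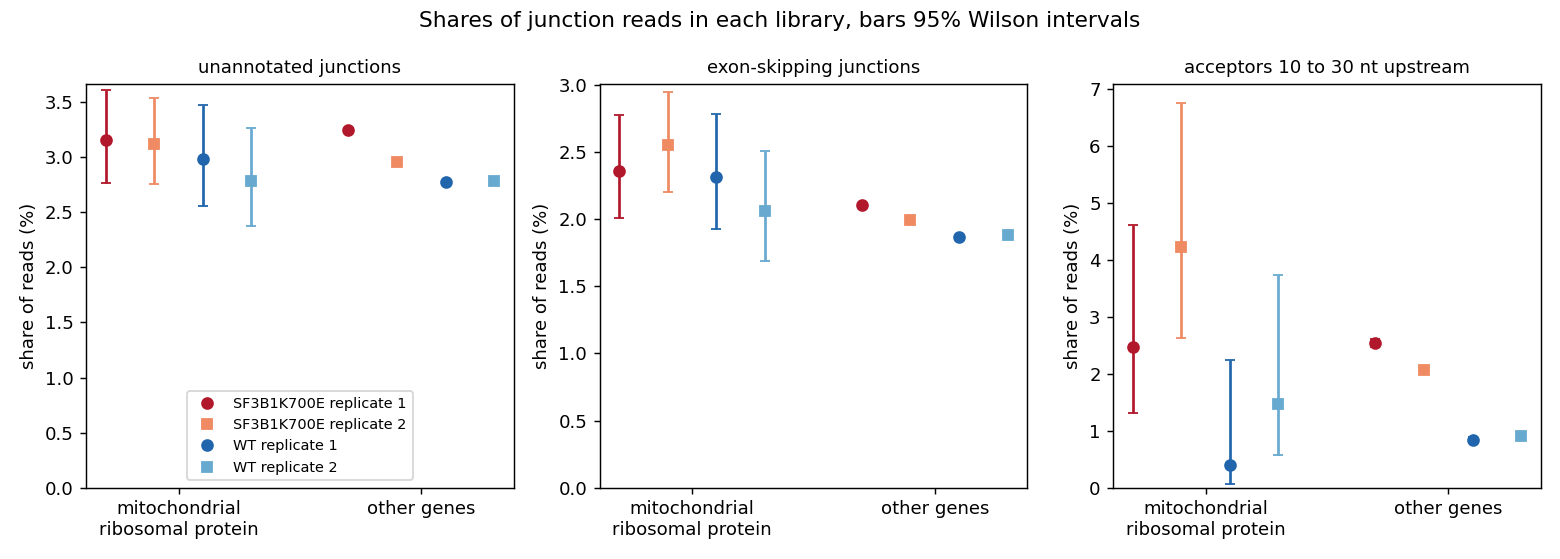
Share of reads in percent at unannotated junctions, at exon-skipping junctions and at acceptors 10 to 30 nt upstream of an annotated one, for mitochondrial ribosomal protein genes and for other genes, in the 2 SF3B1K700E (red, orange) and 2 WT (blue) libraries, with 95% Wilson intervals as bars. In the right panel the mitochondrial ribosomal protein genes lie at 2.47% and 4.23% in SF3B1K700E and at 0.402% and 1.48% in WT.

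The unannotated share per gene was tested in 25 of the 78 genes, and 0 passed, where 0.0148% of 6753 genes did so. 1 gene, MRPS35, had an unadjusted edgeR p under 0.05, where 4.65% of all genes did. It had 0 and 2 unannotated reads beside 164 and 213 annotated reads in SF3B1K700E, against 2 and 6 beside 100 and 109 in WT, a log2 change of -2.65 (edgeR adjusted p 1.000). The shares were 0% and 0.930% in SF3B1K700E and 1.96% and 5.22% in WT. At the other end, MRPL42 had 9 and 4 unannotated reads beside 197 and 113 annotated reads in SF3B1K700E, against 2 and 0 beside 88 and 103 in WT, with a log2 change of 1.83. That change was 5.39 without WT replicate 1 and 0.80 without WT replicate 2. Of the other genes with the largest and smallest changes, 3 had groups that did not overlap. No share of such genes over all genes tested was set beside this count, so it is a description only. Picking the largest and smallest changes also favours groups that are apart. MRPS25 had 6.03% and 6.69% in SF3B1K700E, against 8% and 11.6% in WT, and MRPL32 had 13.4% and 8.51% in SF3B1K700E, against 16.7% and 18.6% in WT. MRPS15 had 2.50% and 3.98% in SF3B1K700E, against 1.32% and 2.11% in WT. The other 5 overlapped, so that no direction can be read from them. In MRPS16 the shares were 1.85% and 11.1% in SF3B1K700E, against 16.4% and 8.64% in WT, and in MRPL19 they were 6.67% and 1.35% in SF3B1K700E, against 7.58% and 1.72% in WT. MRPL9 had 4.3% and 3.16% in SF3B1K700E, against 0% and 3.28% in WT, MRPL3 had 0.324% and 4.58% in SF3B1K700E, against 0.595% and 1.19% in WT, and MRPS27 had 6.04% and 4.68% in SF3B1K700E, against 0.592% and 5.88% in WT. The median over the 25 genes was 0.22, and 0.20 over all genes tested.

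The genes that act with the mitochondrial ribosome were read from the same fit. For reading their counts, at an unadjusted edgeR p under 0.05 there were 3.67% of all genes higher and 6.44% lower, and 19.4% had both SF3B1K700E libraries above both WT libraries. Of 5 mitoribosomal proteins with other symbols, 4 were tested and 0 passed, with a median log2 change of -0.30, 0 at an unadjusted p under 0.05 and 0 with both SF3B1K700E libraries higher. Of 28 assembly factors, 25 were tested and 0 passed, with a median of -0.00, 0 at an unadjusted p under 0.05 and 4 (16%) with both higher. Of 18 mitochondrial translation factors, 17 were tested and 0 passed, with a median of 0.28, 3 genes higher at an unadjusted p under 0.05, 0 lower, and 7 (41.2%) with both higher. Of 24 genes of mitochondrial DNA maintenance and RNA processing, 23 were tested and 0 passed, with a median of 0.18, 1 gene in each direction at an unadjusted p under 0.05 and 8 (34.8%) with both higher. Both SF3B1K700E libraries were below both WT libraries in 20.1% of all genes. Among genes tested this held for 2 (50%) of the proteins with other symbols and 3 (12%) of the assembly factors. It held for 0 of the translation factors and 5 (21.7%) of the DNA and RNA genes.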

How the data were processed

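Junction reads were compared between 2 SF3B1K700E and 2 WT libraries of chromatin-bound RNA. Per the run logs and the labels' protocols, the authors aligned read pairs with STAR 2.7.10a to GRCh38.p12 with junctions of GENCODE 27 in the index and GENCODE 22 added at mapping, and deposited counts of reads across each junction, uniquely and multiply mapped and not normalized. Per the file headers of STAR's output, the deposited files also give the longest overhang in bases. Unspliced RNA was not analysed here.

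Uniquely mapped reads at annotated junctions were assigned to genes with GENCODE 29, which held 99.7% of the annotated junctions. Introns of more than 1 gene (3.98% of annotated-junction reads) were left out of gene totals. Genes were filtered with filterByExpr and tested on counts with the quasi-likelihood test of edgeR 4.0.16 (R 4.3.3) with TMM scaling, group as the only term and Benjamini-Hochberg adjustment at 0.05 over all genes. Acceptor use, donor use and unannotated shares were tested with diffSpliceDGE over all junctions or genes, with at least 10 reads over the 4 libraries. A standard error is the absolute log2 change divided by the square root of F, so it adds nothing to the p. DESeq2 1.42.0, limma 3.58.1, other scalings, filters and multiply mapped reads, leaving out each library, and the replicate number as a block were tried as alternatives. No upstream acceptor of these genes reached the planned 10 reads, so those with at least 1 read are given. The tests were checked on simulated data.

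The mitochondrial ribosomal protein genes, the other lists and the naming rule were chosen with earlier results of these data known. The rule named genes past the threshold, the 8 highest and 8 lowest changes among genes whose groups do not overlap, the 5 genes with most reads, the 8 junctions with the lowest p in each fit, and the 5 highest and 5 lowest unannotated shares per gene. Upstream acceptors under 10 reads, tandem acceptors and untested genes were named after their values were seen. Replicate numbers were not used as pairs in the main fits. Deviations of same-numbered libraries tended to opposite directions, at a Pearson's r of -0.205 over 10827 genes.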

Additional observations from a re-analysis of the deposited data

How the results depend on the processing

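The number of mitochondrial ribosomal protein genes passing stayed 0 under RLE scaling, DESeq2, no filter, multiply mapped reads and the replicate block. Leaving out 1 library gave 0 to 1, the 1 being MRPL23 without SF3B1K700E replicate 1 and without WT replicate 2, fits in which the lone library is assumed to vary like the others. The median log2 change moved between -0.0094 and 0.102 over those fits. Counts of acceptor, donor and unannotated-share calls were 0 under every alternative run, including the replicate block, which changed no call. Numbers crossed between the groups, tried after seeing the data, also gave 0 calls in all 4 fits. With that crossed block the edgeR adjusted p of MRPL14 was 0.0625, against 0.141 in the main fit.

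With at least 10 reads per junction the difference in unannotated share was -0.2663 points and that in skipping -0.0914 points, and the cause was not tested. No upstream acceptor share could be set with at least 10 reads, also with multiply mapped reads, an overhang of at least 20 bases or a window of 10 to 25 nt, because 0 sites remained. At 1 read the difference was 2.4105 points, and 1.5269 to 3.294 points when leaving out 1 library each. A window of 5 to 50 nt, added after seeing the data, held the same 15 sites. Because 11 of these sites had reads in SF3B1K700E alone, the direction is in part set by how they were chosen, and these values are no sign of stability. Leaving out 1 library moved the log2 change by over 1.5 times in 9 of 20 named genes in spliced reads, in 5 of 8 named junctions in acceptor use, in 2 of 6 in donor use and in 9 of 10 genes in unannotated share. Among single genes it put the log2 change of MRPL3 between -0.0755 (without SF3B1K700E replicate 1) and 0.6351. It put the change of unannotated share between -0.8611 and 0.4454 (without SF3B1K700E replicate 2) in MRPL19 and between -0.1249 (without WT replicate 1) and 3.0672 in MRPS27. The gene test had standard errors of 0.24 to 0.60 in these genes, and the tested acceptor junctions had a median of 30 reads.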
